A study of Mus musculus with 10 samples.

Results

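The type I interferon response genes described here were Bst2, Cmpk2, Ddx58, Ddx60, Dhx58, Dtx3l and Epsti1, 7 of the 20617 genes in the deposited table, chosen by name. CD3+ T cells were isolated from the spleens of Nf1OPG mice, and their RNA was sequenced in bulk. All mice were Nf1 flox/mut; GFAP-Cre on a C57BL/6 background, so that controls and treated mice alike carried a germline Nf1 mutation. The GFAP-driven Cre inactivates the remaining Nf1 allele in neuroglial progenitors, and other cells of these mice are Nf1 heterozygous. The PBS group held 5 libraries (replicates 1 to 5) and the OVA group 5 libraries (replicates 6 to 10), the former from vehicle controls. OVA mice had experimental asthma, induced with chicken ovalbumin that was injected intraperitoneally in aluminum hydroxide over 2 weeks and then given intranasally. In the study's asthma model the mice were treated at 4 to 6 weeks of age. Age at spleen collection, sex and pooling of animals were not given in the sources used here, so the p-values measure only the spread between these libraries.

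Type I interferons are secreted antiviral cytokines that bind the receptor pair Ifnar1 and Ifnar2 and signal through the kinases Jak1 and Tyk2. These activate a transcription factor complex that includes Stat2 and Irf9 and binds the interferon-stimulated response element (ISRE) near the start of responding genes. T cells respond to interferon with antiviral, antigen presentation and growth control programmes, and the RNA of the induced genes is widely used as a record of recent interferon exposure.

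In these T cells none of the 7 genes passed the test between PBS and OVA mice, and their differences had no common direction. Ddx60, Dhx58, Ddx58 and Dtx3l had a higher mean in OVA mice (log2 fold changes of 0.40, 0.33, 0.29 and 0.17), whereas Bst2, Epsti1 and Cmpk2 had a lower mean (-0.29, -0.18 and -0.06). All 95% intervals lay between -0.57 and 0.81 on the log2 scale.

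The values and the names of the deposited table are out of step. The values of a gene were taken from the row a fixed distance above its name, which was 3 rows for Bst2, 4 for Cmpk2, 5 for Ddx58, Ddx60, Dhx58 and Dtx3l, and 7 for Epsti1. An alignment of the rows to the gene annotation and mean level, which used no treatment groups, placed all 7 at the same distance, with probabilities from 0.963 (Cmpk2) to 1.00. All values below are normalized counts, that is, reads divided by a size factor for each library. The libraries held 6835696 to 29915782 recovered reads, the fewest in PBS replicate 3, and the fewest reads behind any value of the 7 genes were 66. At these rows the T cell markers (Cd3d, Cd3e, Cd4, Cd8a and 6 others) summed to 85951 to 162458 normalized counts in PBS libraries and 103629 to 142031 in OVA libraries.

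Because these genes are known targets of the ISRE-binding complex, their promoters were searched on both strands for its core, GAAA followed by any 2 bases (NN) and GAAA again, with overlapping matches kept. Sequences were taken from RefSeq (GRCm38.p6), from 250 bases before to 50 after the transcript start, and 6 of the 7 genes matched. The core was found in 3 of these 6, against 3.44% of all 32851 promoters of the same length and 3.99% of 27025 genes. Among induced genes of the pathway list described further on, 18 of 40 held it, as did 7 of the 24 other genes of that list. Dhx58 had no entry. The 3 promoters with a match are shown around it, 5′ to 3′ on the gene's strand, with the core in capitals.
Bst2, chr8:71537557-71537632, minus strand: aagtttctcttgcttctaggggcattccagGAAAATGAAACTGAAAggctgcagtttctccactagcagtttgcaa
Ddx58, chr4:40239806-40239853, minus strand: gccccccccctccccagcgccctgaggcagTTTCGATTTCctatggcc
Ddx60, chr8:61928004-61928106, plus strand: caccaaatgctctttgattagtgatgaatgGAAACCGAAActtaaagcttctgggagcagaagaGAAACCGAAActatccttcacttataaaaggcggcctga

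In Bst2 a pair of cores overlapped, from -130 to -121 and from -124 to -115 relative to the start, whose first base is 1. In Ddx60 the same core occurred at -53 to -44 and again at -19 to -10. The single core of Ddx58 lay on the opposite strand just inside the transcript, at 3 to 12. Cmpk2, Dtx3l and Epsti1 held no match to these letters in this window. A match is a description of the sequence and not evidence of binding in these cells. The genes with a core included the members with the lowest (Bst2) and the highest (Ddx60) log2 fold change.

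**Figure D1:**
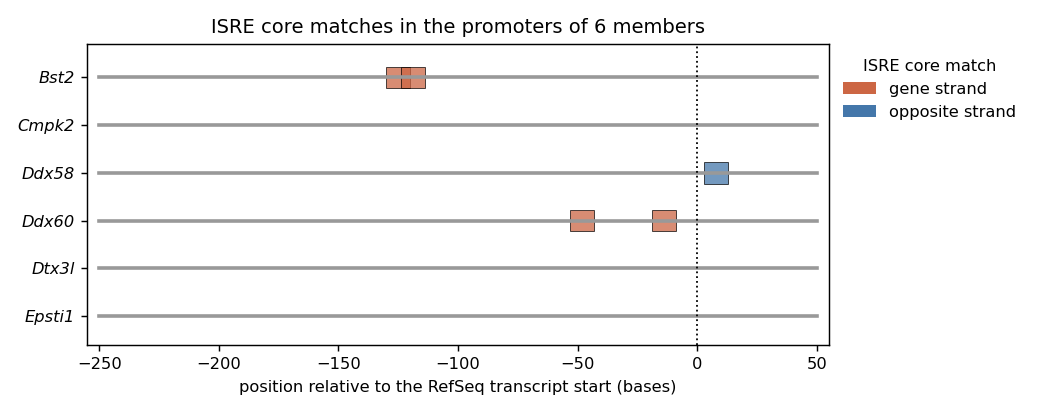
Matches to the ISRE core in 6 promoters. The horizontal axis is the position relative to the RefSeq transcript start in bases, grey lines are the searched windows, and boxes are matches on the gene's strand (orange) or the opposite strand (blue). Bst2 and Ddx60 each held a pair of matches, Ddx58 held 1, and the other 3 genes held none.

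The cytosolic RNA sensors and their relatives came first. Ddx58 encodes RIG-I, a helicase that recognises RNA with a 5′ triphosphate and signals through Mavs. It lies on chromosome 4 from 40203773 to 40239828 on the minus strand (mm10, as for all genes here). PBS replicates 1 to 5 held 955, 916, 673, 1215 and 1485 normalized counts. OVA replicates 6 to 10 held 1186, 1396, 1159, 1295 and 1151. The OVA libraries formed a narrow band inside the PBS range, since PBS replicate 3 was the lowest and PBS replicate 5 the highest of all 10. The means were 1049 ± 311 for PBS and 1237 ± 105 for OVA (SD, n = 5 each). The log2 fold change was 0.29 (SE 0.18) with a limma adjusted p = 0.618, and the exact two-sided permutation test gave p = 0.190. For Ddx58 the fold change on the log2 scale was 0.14 without PBS replicate 3 and 0.42 without PBS replicate 5.

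Ddx60 encodes a large helicase of the same superfamily that is induced by interferon and has been studied as a cofactor of RNA sensing. It lies on chromosome 8 from 61928087 to 62038244 on the plus strand. In PBS replicates 1 to 5, Ddx60 had 302, 171, 238, 304 and 332 normalized counts. In OVA replicates 6 to 10 it had 339, 359, 386, 374 and 290. Of the OVA libraries, 4 lay above every PBS library and only OVA replicate 10 fell within the PBS range, so the groups overlapped through this library alone. The means were 269.5 ± 64.8 for PBS and 349 ± 37.7 for OVA (SD, n = 5 each). Ddx60 had the largest log2 fold change of the 7 genes, 0.40 (SE 0.19), with a limma unadjusted p = 0.0516 and adjusted p = 0.514. The exact two-sided permutation test gave p = 0.0476, for which the smallest possible value is 0.00794. Without PBS replicate 2, its lowest library, the log2 fold change was 0.25.

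Dhx58 encodes LGP2, a RIG-I relative that lacks the signalling domain and modulates the other sensors. It lies on chromosome 11 from 100694884 to 100704271 on the minus strand. Its values in PBS replicates 1 to 5 were 331, 225, 229.9, 289 and 254 normalized counts. Those in OVA replicates 6 to 10 were 273, 479, 258, 294 and 395. OVA replicates 7 and 10 were above every PBS library, while the other OVA libraries lay within the PBS range. The means were 266 ± 44.2 for PBS and 339.9 ± 94.6 for OVA (SD, n = 5 each), and the spread was wider in the OVA group. The log2 fold change was 0.33 (SE 0.20) with a limma adjusted p = 0.609, and the exact two-sided permutation p was 0.151. Without OVA replicate 7 the log2 fold change of Dhx58 was 0.19. An antisense gene, Dhx58os, shares 141 exonic bases (4.3%) with Dhx58, and reads of the pair could not be told apart if strand was not used in counting, which was not stated.

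The direct antiviral effectors followed another order. Bst2 encodes tetherin, a membrane protein that holds budding enveloped viruses at the cell surface. It lies on chromosome 8 from 71534255 to 71537456 on the minus strand. PBS replicates 1 to 5 held 1084, 1089.6, 800.4, 1079 and 946 normalized counts. OVA replicates 6 to 10 held 899, 826, 791, 701 and 844. All OVA libraries lay below 4 of the 5 PBS libraries, and the groups overlapped only because PBS replicate 3, the library with the fewest reads, was low. The means were 999.7 ± 127 for PBS and 812 ± 73.2 for OVA (SD, n = 5 each). Bst2 had the smallest spread of the 7 genes, with a within-group SD of 0.17 on the log2 scale. The log2 fold change was -0.29 (SE 0.13) with a limma unadjusted p = 0.0407 and adjusted p = 0.486, and the exact two-sided permutation p was 0.0397. Without PBS replicate 3 the value was -0.37.

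Cmpk2 encodes a mitochondrial nucleotide kinase that is induced beside its neighbour Rsad2, the gene of the antiviral protein viperin. Cmpk2 lies on chromosome 12 from 26469204 to 26479837 on the plus strand, and the starts of the pair are 12752 bases apart. The PBS libraries, replicates 1 to 5, held 103, 129, 183, 152 and 112 normalized counts. The OVA libraries, replicates 6 to 10, held 143, 105, 135, 109 and 149. Every OVA library lay within the PBS range, whose highest value was PBS replicate 3. The means were 136 ± 32.2 for PBS and 128 ± 19.8 for OVA (SD, n = 5 each). The log2 fold change was -0.06 (SE 0.22), with a limma adjusted p = 0.942 and an interval from -0.53 to 0.40, and the exact two-sided permutation p was 0.738. Its direction turned without PBS replicate 3 (0.05), without OVA replicate 7 (0.003) and with each library at the same total (0.05). Rsad2 had a log2 fold change of -0.22 (SE 0.35).

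The remaining members act on other proteins or on signalling. Dtx3l encodes a ubiquitin ligase that forms a complex with the ADP-ribosyltransferase-like protein Parp9. It lies on chromosome 16 from 35926511 to 35939151 on the minus strand. In PBS replicates 1 to 5, Dtx3l had 1227, 1564, 1675, 1893 and 2484 normalized counts. In OVA replicates 6 to 10 it had 1872, 2052, 2134, 2150.0 and 1524. The PBS libraries covered a 2.02-fold range that contained every OVA library. The means were 1769 ± 467 for PBS and 1947 ± 261 for OVA (SD, n = 5 each). The log2 fold change was 0.17 (SE 0.17) with a limma adjusted p = 0.782, and the exact two-sided permutation p was 0.405. It was 0.04 without PBS replicate 1 and 0.30 without PBS replicate 5. The partner Parp9 starts 681 bases away on the opposite strand, shares 458 exonic bases (8.0% of Dtx3l), and had a log2 fold change of 0.01 (SE 0.14).

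Epsti1 encodes an interferon-induced protein first described at the contact of epithelial and stromal cells and since studied in immune cell activation. It lies on chromosome 14 from 77904239 to 78002657 on the plus strand. Its values in PBS replicates 1 to 5 were 1528, 1537, 1783, 2117 and 2318 normalized counts. Those in OVA replicates 6 to 10 were 1593, 1781, 1793, 1431 and 1496. PBS replicates 4 and 5 stood above every OVA library, and the other PBS libraries lay within the OVA range. The means were 1857 ± 352 for PBS and 1619 ± 164 for OVA (SD, n = 5 each). The log2 fold change was -0.18 (SE 0.14) with a limma adjusted p = 0.695, and the exact two-sided permutation p was 0.222. It was -0.10 without PBS replicate 5 and -0.07 with each library at the same total.

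**Figure D2:**
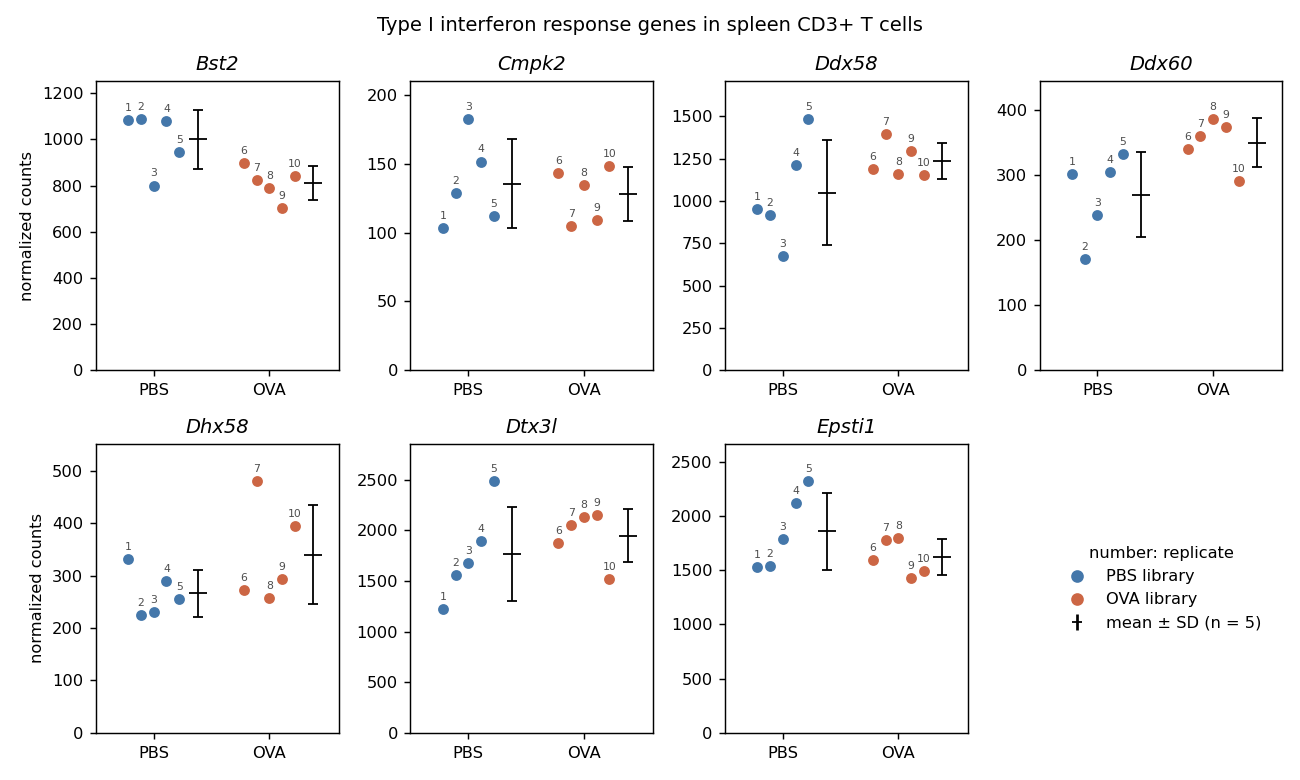
Normalized counts of the 7 genes in each library, on linear axes from 0. Points are libraries numbered by replicate (blue PBS, orange OVA), and black bars are the mean ± SD (n = 5). The groups overlapped for all 7 genes, for Ddx60 through OVA replicate 10 alone and for Bst2 through PBS replicate 3 alone.

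Of the 7 genes, 0 passed a limma adjusted p of 0.05, as did 0.00494% of all genes (1 of 20249 tested). By DESeq2 on the recovered reads 0 of the 7 passed, against 0.946% of the 18286 genes given an adjusted p. By edgeR 0 of the 7 passed, against 2 of the 20249 genes tested. At an unadjusted limma p under 0.05 the count was 1 of 7 (Bst2, lower), against a background of 9.77%. None of the 7 had groups that did not overlap, against 1.78% of all genes. Of the 7, 4 had a higher mean in OVA mice and 3 a lower one, and their median log2 fold change was 0.17 beside 0.04 over all genes tested. A p that misses the threshold does not show equal levels, and the intervals still allowed a log2 fold change of up to 0.81 for Ddx60 and down to -0.57 for Bst2.

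The genes were expressed at very different levels. Per kilobase of exon, the mean over all 10 libraries was 1003 ± 154 normalized counts for Bst2, 749 ± 124 for Epsti1 and 324 ± 64.3 for Dtx3l (SD, n = 10 each). The sensors were lower, at 162 ± 34.1 for Ddx58, 92.6 ± 24.4 for Dhx58 and 35.6 ± 7.53 for Ddx60, and Cmpk2 was lowest at 31.7 ± 6.13. Each gene lay above the next in all 10 libraries except Ddx60, which was above Cmpk2 in 6 of 10, so the order of these last genes was not resolved. The order depends on the exonic length in GENCODE M21, which ran from 0.903 kb for Bst2 to 8.684 kb for Ddx60.

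Within the groups, the members' SD on the log2 scale ran from 0.17 to 0.32 with a median of 0.30, beside a median of 0.29 over the 9808 genes that averaged 100 or more normalized counts. Over the 10 libraries, which differ in depth and cell content, 10 of the 21 gene pairs correlated positively, with a median Pearson r of -0.06. After each group was centred on its own mean, 12 of 21 were positive and the median r was 0.06. All 6 pairs among Ddx58, Ddx60, Dtx3l and Epsti1 were then positive, from 0.47 to 0.80. Without centring, the closest pairs were Ddx58 with Ddx60 (r = 0.68, Spearman rho = 0.68) and Ddx58 with Dtx3l (r = 0.65, rho = 0.79). Leaving out the 2 libraries farthest from the median of Ddx58 gave 0.41 for the first pair and 0.88 for the second. Dtx3l and Epsti1 had an r of 0.56 that became 0.80 with centring. Cmpk2 ran opposite to Ddx58 with r = -0.57. With 10 libraries these are descriptions of the libraries and were not tested.

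**Figure D3:**
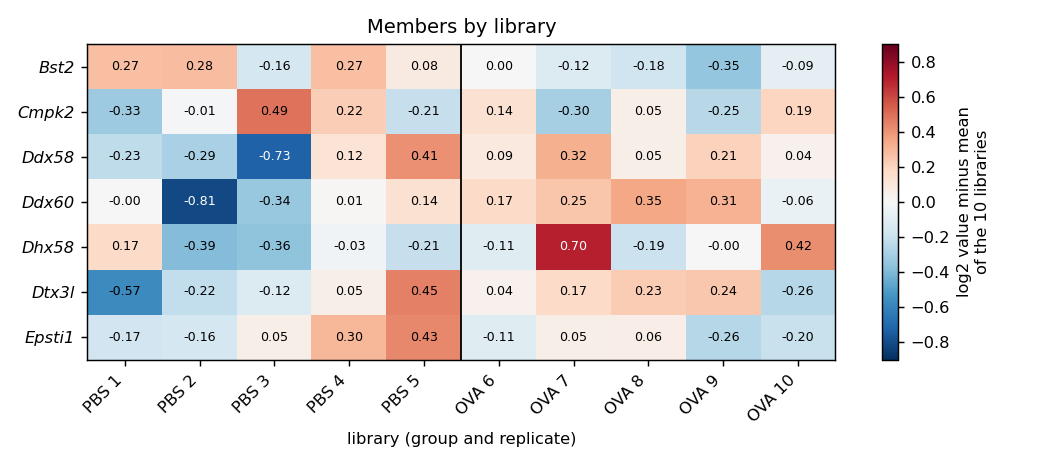
Each cell is the log2(normalized counts + 1) of a gene (vertical axis) in a library (horizontal axis, PBS left of the line and OVA right) minus the gene's mean over the 10 libraries, also printed in the cell. No library was high or low for all 7 genes, and the extremes were Ddx60 in PBS replicate 2 (-0.81), Ddx58 in PBS replicate 3 (-0.73) and Dhx58 in OVA replicate 7 (0.70).

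The mean standardized profile of the 7 genes ran from -0.64 in PBS replicate 2 to 0.57 in PBS replicate 5, and the OVA libraries lay between -0.20 and 0.41. Against the mean profile of the other 6 genes, Pearson r was 0.60 for Ddx58, 0.50 for Epsti1, 0.43 for Dtx3l and 0.38 for Ddx60. It was 0.00 for Dhx58, -0.34 for Bst2 and -0.43 for Cmpk2. Among 10560 genes that averaged 50 or more normalized counts, those whose pattern was most like the mean of all 7 over the 10 libraries were Golga4 (r = 0.95), Cul7 (0.91), Gm4924 (0.88), Cap1 (0.87) and Ipo9 (0.86). These 5 were the highest of a large number of correlations and carry no test.

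The members correlated with transcription factors of the pathway to different degrees over the 10 libraries, which differ in depth and cell content. These correlations were not tested. PBS replicate 3, the library with the fewest reads, had the lowest Irf9 (1853 normalized counts), the lowest Ddx58 (673) and the highest Cmpk2 (183). Values without that library were not computed. With Irf9, Pearson r was 0.79 for Ddx58, 0.66 for Ddx60, 0.52 for Dhx58, 0.32 for Dtx3l, 0.28 for Epsti1, 0.10 for Bst2 and -0.75 for Cmpk2. With each group centred on its own mean, the values with Irf9 were 0.77, 0.65, 0.47, 0.26, 0.45, 0.43 and -0.75 in the same order of genes. Cmpk2, the member with the lowest placement probability (0.963), was the only one that ran opposite to Irf9 either way. It was the lowest of its group in PBS replicate 1 (103) and OVA replicate 7 (105). Its neighbour Rsad2 was the highest of its group in both (137 and 77.6). Whether the placement of its row bears on this was not tested. With Stat2, r was 0.62 for Ddx58, 0.22 for Ddx60, 0.07 for Bst2 and -0.57 for Cmpk2, and centring gave 0.56, 0.03, 0.43 and -0.57. The other 3 members lay between 0.09 and 0.35 with Stat2, and between 0.04 and 0.29 with centring.

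The rest of the pathway was read from a list of 84 genes, of which 65 could be placed on a row with a probability of at least 0.9. Of these 65, 0 passed an adjusted p of 0.05 by limma, DESeq2 or edgeR, beside 1, 173 and 2 of all genes. At an unadjusted limma p under 0.05 there were 7 (5 higher and 2 lower in OVA mice). This was 10.8% of the 65, beside 9.77% of all genes, and of the latter 1441 were higher and 537 lower. The median log2 fold change of the 65 was 0.10, and 41 (63.1%) had a higher mean log2 value in OVA mice, beside 54.5% of all genes. The ligands Ifna1, Ifna2, Ifna4, Ifna5, Ifnb1, Ifne and Ifnk were not analysed here. The receptor chains Ifnar1 and Ifnar2 had placement probabilities of 0.878 and 0.874, and at the most probable rows their log2 fold changes were 0.23 (SE 0.16) and 0.12 (SE 0.14).

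None of the 9 kinases and transcription factors passed the limma test, with adjusted p-values from 0.616 to 0.996, and 8 of 9 had a higher mean log2 value in OVA mice, beside 54.5% of all genes. The count was 7 or 8 with any 1 library left out. These genes were measured in the same libraries, so the 9 directions are not independent of each other. The log2 fold changes were 0.21 for Jak1 and 0.23 for Tyk2, the kinases at the receptor, and 0.19 for Stat2 and 0.13 for Irf9, which act in the nucleus. Without PBS replicate 3 these values were 0.08 for Jak1, 0.14 for Tyk2, 0.07 for Stat2 and 0.01 for Irf9. Irf7, the factor that amplifies interferon production, was counted among the 8 at 0.004 (SE 0.17), and DESeq2 gave -0.01. Irf3 was the one with a lower mean log2 value (-0.17). Irf5 and Irf8, which are prominent in B and myeloid cells, were at 0.34 (SE 0.30) and 0.35 (SE 0.29), and at 0.12 without PBS replicate 5 and 0.11 without OVA replicate 6, respectively.

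Negative regulators held the lowest unadjusted p of the list. Usp18, which removes Isg15 from proteins and blocks the receptor, had 1652, 1396, 1177, 1460.0 and 1168 normalized counts in PBS replicates 1 to 5. In OVA replicates 6 to 10 it had 846, 1386, 963, 639 and 1008. Thus 4 of 5 OVA libraries were below every PBS library and OVA replicate 7 was within the PBS range. Its log2 fold change was -0.53 (SE 0.18), with a limma unadjusted p = 0.0113 and adjusted p = 0.342. Socs1, an inhibitor of Jak kinases, went the other way, with 4 of 5 OVA libraries above every PBS library. It was at 0.74 (SE 0.30) with a limma unadjusted p = 0.0246 and adjusted p = 0.428. Socs3 (0.01), Rnf125 (-0.06) and Nlrc5 (0.38) had limma adjusted p-values from 0.528 to 0.994.

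Among the induced effectors the highest log2 fold changes, with a pseudocount of 1, were those of Mx2 (1.5, SE 0.81), Oasl2 (1.45, SE 0.80) and Slfn8 (0.69, SE 0.38). The order of the first pair depended on the method, since DESeq2 gave 0.76 for Mx2 and 1.87 for Oasl2. The group means were 4.92 and 8.62 normalized counts for Mx2 and 30.2 and 108 for Oasl2 (PBS and OVA). The lowest log2 fold changes were those of Mx1 (-0.86, SE 0.59), Parp12 (-0.55, SE 0.37) and Isg20 (-0.45, SE 0.20). Single libraries moved several of these, as the value was 2.2 for Mx2 without PBS replicate 4, 2.36 for Oasl2 without OVA replicate 9 and 0.35 for Slfn8 without PBS replicate 1. It was -0.42 for Mx1 without OVA replicate 6 and -0.31 for Parp12 without PBS replicate 2. Mx1 and Mx2, whose intact forms encode GTPases that block viral replication, are both annotated as polymorphic pseudogenes in the mouse. They lay at opposite ends of this order. Both had few reads, with no library above 29.0 normalized counts for Mx1 or 19.4 for Mx2. None of the 6 passed the limma test, with adjusted p-values from 0.495 to 0.655.

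**Figure D4:**
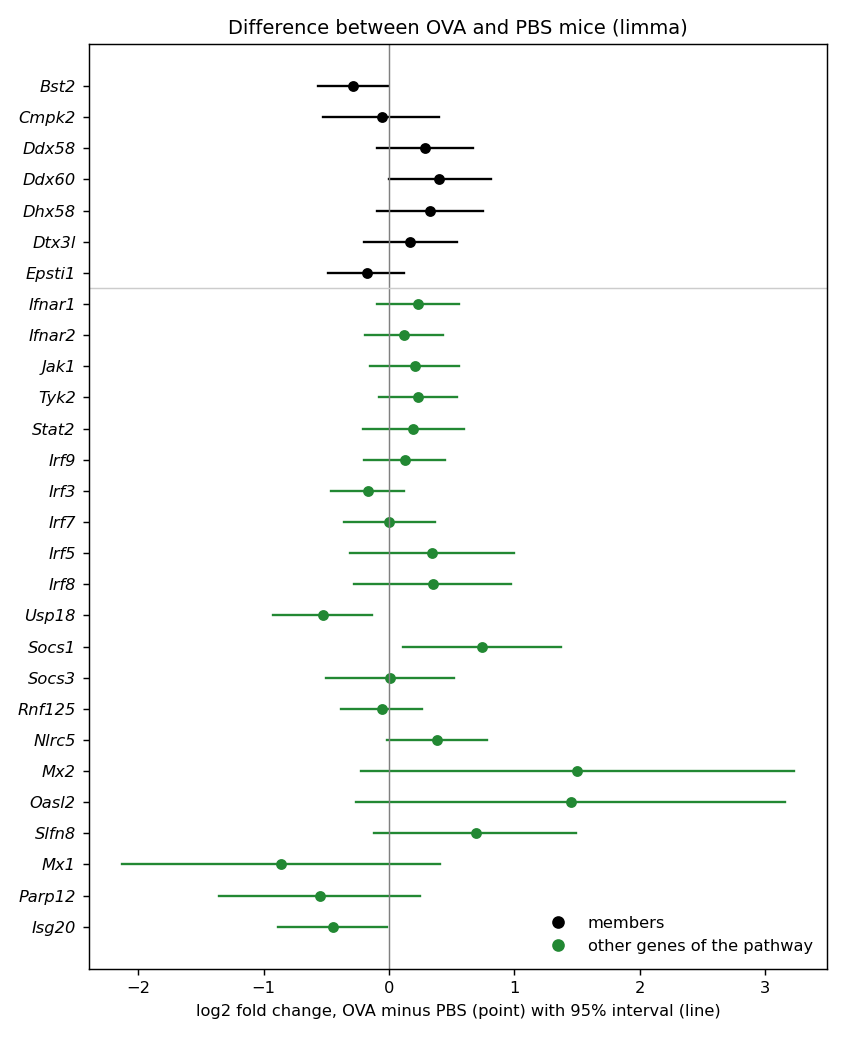
Log2 fold change, OVA minus PBS (horizontal axis), for the 7 members (black) and 21 other pathway genes (green). Points are limma estimates on log2(normalized counts + 1) and lines are 95% intervals, with n = 5 libraries per group. Estimates of the members lay between -0.29 and 0.40, and none of the 28 genes passed the adjusted threshold.

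Other cell types in the preparation also respond to interferon, and in bulk RNA fewer cells of a type and less RNA per cell cannot be told apart. Plasmacytoid dendritic cell markers (6 of 7 used), whose cells express Bst2, summed to 1478 to 2174 normalized counts in PBS and 1618 to 2701 in OVA libraries. Ccr9 had the highest mean of these 6 (1068 in PBS and 1287 in OVA), so the sum mostly follows this gene. The PBS and OVA means of the rest were 524 and 687 for Pld4, 121 and 180 for Runx2, and 92.1 and 102 for Siglech. They were 23.9 and 30.8 for Cox6a2 and 8.45 and 9.58 for Klk1. Siglech had a log2 fold change of 0.08 (SE 0.46). Whether the sum came from these cells or from the T cells themselves was not tested. Macrophage and monocyte markers (9 of 9) summed to 1995 to 7212 in PBS and 1842 to 12240.1 in OVA. B cell markers (8 of 8) ran from 774 to 2623 in PBS and from 833 to 7397 in OVA, and NK cell markers (6 of 6) from 679.9 to 2074 and from 1295 to 2468. Of the NK cell markers, 4 of 6 had a higher mean log2 value in OVA mice. Gzma had the highest mean of these (617 in PBS and 889 in OVA), with a log2 fold change of 0.65 (SE 0.40). Klrb1c (-0.23) and Klre1 (-0.29) were lower in OVA mice. Neutrophil markers (6 of 7) ran from 337 to 6854 in PBS and from 329.9 to 59781 in OVA, and OVA replicate 6 was the highest. Erythroid markers (7 of 7) ran from 3118 to 16224 in PBS and from 508 to 9944 in OVA. Stromal markers (3 of 10) were the list whose groups did not overlap, at 9.47 to 38.8 in PBS and 84.4 to 102 in OVA. No marker gene passed the limma adjusted threshold, none was at 0 in every library, and the part of these cells in the values of the 7 genes was not tested. Without OVA replicate 6 the log2 fold changes were -0.33 for Bst2 and 0.41 for Ddx60.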

How the data were processed

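RNA of spleen CD3+ T cells (5 PBS and 5 OVA libraries, Illumina TruSeq) was sequenced on an Illumina HiSeq. The authors aligned reads with STAR 2.6.1d to Ensembl release 99 (mm10), counted genes in Partek Flow 9.0 and divided counts by median-ratio size factors. The deposited values are these normalized counts (a signal). Use of strand in counting was not stated. At least 99.93% of values were whole multiples, within 0.1, of the value of 1 read (0.6259 to 2.7694), and dividing by it recovered the reads. Intervals and p-values do not cover errors of row placement.

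Rows were aligned to names with a hidden Markov model that allowed distances of -10 to 40 rows (chance of change 0.002 per row, 10 rounds of fitting), using GENCODE M21 annotation and mean level. The 20249 genes that averaged 1 or more were fitted in limma 3.58.1 (R 4.3.3, trended variance), after log2(normalized counts + 1), the scale of all fold changes, and p-values were adjusted over all of them by Benjamini-Hochberg. Single genes were also compared by exact two-sided permutation of 252 assignments. The study's test, DESeq2 (version 1.42.0 here), and edgeR 4.0.16 were run on recovered reads as alternatives. Other alternatives were pseudocounts of 0.1 and 0.5, minimum means, scaling, other rows and each replicate left out. The scripts were tested on simulated data. Members and gene lists were chosen with earlier results of these data known. Genes of the pathway list were named by rule: receptors, kinases, transcription factors and negative regulators, and of the induced genes the 3 with the largest rise and the 3 with the largest decline. The 5 genes most like the mean profile were also named. No value column was left unused. The values of 1 gene of that list are not reported here.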

Additional observations from a re-analysis of the deposited data

Results flagged for a closer look

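None of the 7 members had a library past the cut-off described next, which does not show that no library stood apart. Single libraries still decided the overlap of the groups for Bst2 and Ddx60, as given above. Of 58 groups of 5 libraries tested (29 genes in both groups), 5 had a library whose gap to its nearest neighbour, as a share of the group's range, exceeded Dixon's critical value of 0.71, where chance gives 2.9. Irf7 was flagged in both groups. It had 2010.5 normalized counts in PBS replicate 1 against 1108 to 1352 in the other PBS libraries, a share of 0.73. In OVA replicate 7 it had 1912 against 1179.5 to 1368 in the other OVA libraries, a share of 0.742. PBS replicate 1 and OVA replicate 7 were also the highest of their groups for Isg15 (759 and 556 normalized counts) and Rsad2 (137 and 77.6). The same held for Usp18 and for the member Dhx58. Other genes of the list differed, as Samd9l was highest in PBS replicate 5 (624) and OVA replicate 9 (864). This sharing was not tested. Rnf125 was low in OVA replicate 10, at 629.5 normalized counts, with a share of 0.781. Mx2 was high in PBS replicate 4, at 19.4 normalized counts, with a share of 0.778. Parp12 was high in PBS replicate 2, at 55.1 normalized counts, with a share of 0.862.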

How the results depend on the processing

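The count of members called was 0 under every alternative run. The count of pathway genes called was also 0, except with DESeq2 without PBS replicate 3 (chosen after seeing the data). There 1 pathway gene, Oasl2, was called (log2 fold change 2.22, DESeq2 adjusted p = 0.049), and the count over all genes is not given here. Changes of scaling, filter, pseudocount, test or replicate called 0 to 2 of all genes, except 173 with DESeq2 and 135 without PBS replicate 5. Few calls were therefore possible in most settings. The median log2 fold change of the members ran from 0.04 (without PBS replicate 1) to 0.30 (without PBS replicate 5) when a replicate was left out. The count of members with groups that did not overlap ran from 0 to 1, being 1 without PBS replicate 3 (Bst2) and without OVA replicate 10 (Ddx60). Each was the only library through which the groups of that gene had overlapped, so this count followed from its removal. The share of all genes was not computed with a replicate left out. Placing each library at the same total moved the median over all genes from 0.04 to 0.15 and that of the members from 0.17 to 0.28. That scaling turned Cmpk2 to 0.05 and Rnf125 to 0.06, quantile normalization turned Rnf125 to 0.0006, and DESeq2 gave -0.01 for Irf7. With a replicate left out, log2 fold changes ran from -0.16 to 0.05 for Cmpk2, -0.11 to 0.14 for Irf7, -0.18 to 0.14 for Socs3 and -0.10 to 0.07 for Rnf125. Taking values 1 row above gave 0.002 for Cmpk2, -0.07 for Ddx58 and 0.15 for Epsti1, and 1 row below gave -0.15 for Ddx58, -0.03 for Dtx3l and 2.01 for Epsti1. Names as listed gave -0.08 for Dhx58 and 0.29 for Epsti1. These rows hold other genes. The other 6 members kept their direction under every change of scaling, filter, pseudocount, test or replicate. No paired analysis was run because the labels give no pairing of PBS with OVA libraries. Depth limits the genes at low levels, Mx1, Mx2 and Parp12, more than the 7 members.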
